A study of Mus musculus with 12 samples.

Results

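Gene expression was compared between GADD34ΔC/ΔC and wild-type mouse embryonic fibroblasts that had both been given poly(I:C). The arrays were chosen by their labels: 3 treated GADD34ΔC/ΔC arrays and 3 treated wild-type arrays, 6 of the 12 single-colour Agilent arrays of the study. All autosomal genes tested are described, 14916 of 15445 genes, out of 19823 autosomal genes named on the array. Both groups received high molecular weight poly(I:C) complexed with Lipofectamine 2000 for 6 h, at 2.5 µg/ml. By the labels they differ in genotype: homozygous for the GADD34ΔC allele (here ΔC) or wild type. The remaining 6 arrays hold 3 cultures of each genotype labelled as not treated, and no culture given the lipid alone was analysed here. Each group comes from 3 independent experiments, and the labels name no embryo, clone, strain or sex for either genotype, so the genotypes cannot be told apart from the cultures that carried them.

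GADD34 is the product of Ppp1r15a. Its C-terminal part binds protein phosphatase 1 and directs it to the translation initiation factor eIF2α, so that protein synthesis resumes after stress kinases such as PKR, PERK, GCN2 and HRI have phosphorylated that factor. Poly(I:C) imitates viral double-stranded RNA: RIG-I and MDA5 in the cytosol and TLR3 in endosomes sense it, IRF3 and NF-κB switch on Ifnb1 and inflammatory genes, and secreted interferon then acts through its receptors on a large set of antiviral genes. Double-stranded RNA also activates PKR directly, which ties the eIF2α branch to the antiviral one.

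Levels are the log2 processed intensity of a gene's probe minus the array's 75th percentile, so that 0 is the brightness at that percentile. They can be set against each other between arrays and not between genes. Differences are ΔC minus wild type on that log2 scale, given as the estimate ± SE of a linear model (limma, n = 3 arrays a group), and a gene is called higher or lower at a Benjamini-Hochberg adjusted p under 0.05. Where a named gene was not well above background on any array of 1 group, a bound is given for the size of its treated difference. Counts by size, medians and correlations use the fitted difference of every gene, unless bounds are mentioned.

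Between 60.4 and 67.3% of the 55681 probes were well above background on each array. Levels correlated across genes at 0.98 to 0.996 between treated arrays of a genotype and at 0.939 to 0.962 between treated arrays of different genotypes. Arrays numbered 3 stood apart. Of 91 interferon-stimulated genes tested, 85 were lowest on wild-type array 3 among the treated wild-type arrays, and 74 were lowest on ΔC array 3 among the treated ΔC arrays. ΔC array 3 also carried signal from the Y chromosome that the other treated ΔC arrays lacked. Ddx3y, a Y-linked RNA helicase, read 1.39, 1.18 and 0.55 on wild-type arrays 1, 2 and 3 and -7.35, -8.23 and -1.56 on ΔC arrays 1, 2 and 3. Eif2s3y, a Y-linked subunit of eIF2, read 2.57, 2.35 and 1.64 in wild type and -5.68, -8.38 and -0.05 in ΔC. The untreated ΔC arrays split the same way, with Eif2s3y at -5.80, -8.46 and -0.33. ΔC array 1 had 38 uneven spots against 2 to 14 on the others. Of 12 fibroblast markers tested, 11 were well above background on all 6 treated arrays, and 4 of the 12 were lower in ΔC (Col3a1, Vim, S100a4 and Twist1), against 8.28% of all autosomal genes. The log2 of their summed signal was 9.76 to 9.99 in wild type and 8.61 to 9.50 in ΔC. The leukocyte markers summed to 3.85 to 4.03 and 3.59 to 3.76, with Lyz2, Tyrobp and Laptm5 not tested; of 8 tested, 1, Aif1, was higher in ΔC, at least 3.88-fold, and 0 lower. The epithelial markers summed to 2.00 to 2.92 and 2.53 to 3.47, with Epcam and Cdh1 called higher in ΔC of 10 tested. Their median difference was -0.07, and Krt8, Esrp1, Cldn4 and Krt14 differed by -1.32, -0.62, -0.40 and -0.31 without passing. The part that such cells play in the differences was not tested, and in bulk samples fewer cells of a type and less RNA per cell cannot be told apart.

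The targeted gene followed the labels. Ppp1r15a read 5.79, 5.83 and 5.81 on the wild-type arrays and -4.12, -8.14 and -7.20 on the ΔC arrays. The groups were far apart, and the probe was well above background on ΔC array 1 only among the ΔC arrays, so the size rests partly on background readings (-12.30 ± 0.91, adjusted p = 2.02e-05). Which part of Ppp1r15a the probe reads was not checked, so a lower reading need not mean less transcript. Ppp1r15a was also lower without treatment (-9.97). Its constitutive partner in the same job, Ppp1r15b, did not pass the test, at 0.86, 0.63 and 0.49 against 0.63, 0.56 and 0.40 (-0.13 ± 0.15, adjusted p = 0.586). Of the 20 nearest tested neighbours of Ppp1r15a, 10 on each side, 6 (30%) were higher in ΔC (Ntf5, Dhdh, Tulp2, Hsd17b14, Bcat2 and Car11) and 0 lower, and 4 of those 6 were higher without treatment too. Over all autosomal genes 12.1% were higher and 8.28% lower, and over chromosome 7, which holds them, 14.0% and 5.70%.

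Treated ΔC and wild-type fibroblasts differed at 20.4% of the autosomal genes, in both directions. In ΔC 1809 genes (12.1%) were higher and 1235 (8.28%) lower. Large differences upwards included those of HOXB and HOXC genes, Gas6, Ptgis and imprinted growth genes. Downwards they included HOXD genes, Pitx1, the chemokine genes Ppbp and Cxcl5 and a broad set of antiviral genes. A difference of 2-fold or more was measured for 1094 of the higher and 630 of the lower genes, and of 8-fold or more for 285 and 171. The median size was 1.27 for higher and 1.04 (log2) for lower genes, against a median SE of 0.20 over all autosomal genes, and the median difference over all of them was 0.01. The 3 arrays of the genotypes did not overlap at 1790 of the higher and 1213 of the lower genes. They did not overlap at 5973 of all autosomal genes either, 40.0%, so a gap between the groups is by itself common here. For 207 of the higher genes no wild-type array was well above background, and for 65 of the lower genes no ΔC array was. Such genes entered the counts by size and the median sizes at their fitted difference, which rests partly on background readings.

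These counts depend on single arrays. Without wild-type array 1 they were 1029 higher and 605 lower, and without wild-type array 2 1035 and 601. Leaving out ΔC array 1 gave 1193 and 776, and leaving out ΔC array 2 gave 1215 and 682. Without all 4 arrays numbered 3, an alternative added after the data were seen, 3167 genes were higher and 2396 lower. Treated arrays of both genotypes shared 1 slide and 1 scan day (ΔC array 1 with wild-type array 1, and with wild-type arrays 1 and 2), and within each of these all 3044 called genes kept their sign. The same arrays also made the calls, so this shared sign was largely built in. It cannot separate genotype from slide or scan day. With the slide as a fixed block 602 and 288 genes were called, and with the scan day 1047 and 587. The split between directions moves with the scaling. Higher genes made up 59.4% of the calls with the 75th percentile and 48.2% when arrays were scaled to their medians, which put the median of all genes at -0.14.

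**Figure D1:**
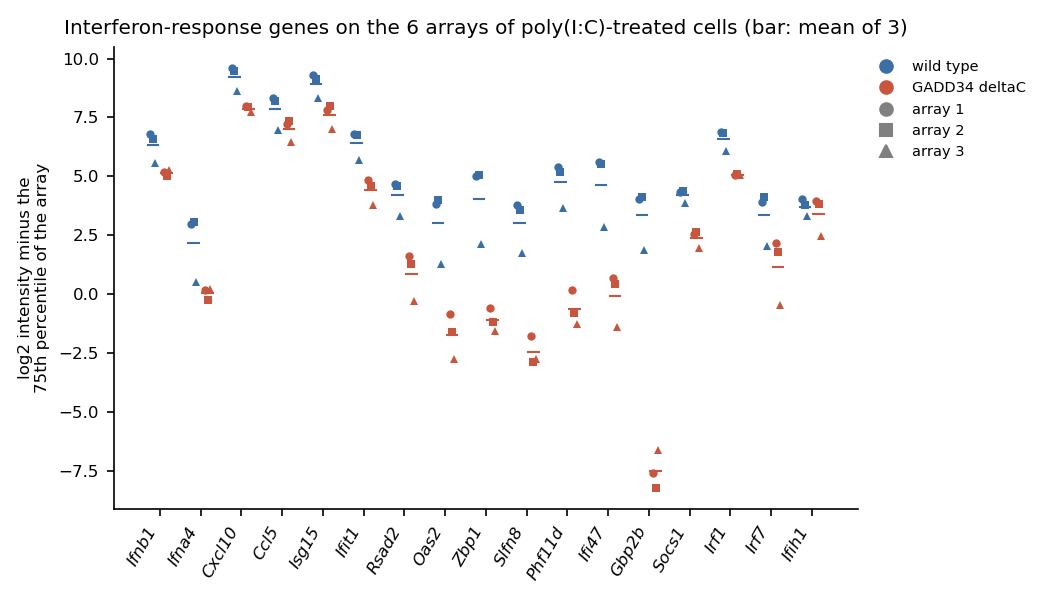
Levels of antiviral genes on the 6 treated arrays, in log2 processed intensity minus each array's 75th percentile; each point is an array, marked by its number and coloured by genotype, and the bar is the mean of 3 arrays. The ΔC arrays lie below the wild-type arrays for Slfn8, Zbp1, Oas2, Rsad2, Cxcl10 and Isg15, and array 3 is the lowest wild-type array for each of them.

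Genes that interferon switches on were lower in treated ΔC cells. Of 108 interferon-stimulated antiviral genes listed, 91 were tested: 67 were lower and 0 higher in ΔC, 66 of them by 2-fold or more and 28 by 8-fold or more. This is a called share of 73.6%, against 20.4% over all autosomal genes. The sign was below 0 for 90 of the 91, and their median difference was -2.01 against 0.01 over all autosomal genes. The median level of the list was 4.41, 4.57 and 3.30 on wild-type arrays 1, 2 and 3 and 2.25, 2.04 and 1.19 on ΔC arrays 1, 2 and 3. Every ΔC array therefore lay below every wild-type array, with array 3 the lowest of each genotype. Without poly(I:C) the same list stood at -0.68, -0.86 and -1.05 in wild type and -0.24, -0.71 and -0.68 in ΔC, where 6 members were called higher and 5 lower (11.1% and 9.38% of all autosomal genes). Of the 67 lower genes, 4 were also lower and 1 was higher in untreated cells. The count of lower members was 42 without wild-type array 1 or without wild-type array 2, and 81 without the 4 arrays numbered 3. It was 43 with the slide and 50 with the scan day as a block.

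Slfn8, of the Schlafen family of growth and translation regulators, read 3.79, 3.55 and 1.76 in wild type and -1.79, -2.88 and -2.76 in ΔC. The groups did not overlap (-5.51 ± 0.49, adjusted p = 6.6e-05). Zbp1, which recognises left-handed RNA and DNA and can start necroptosis, read 5.00, 5.03 and 2.11 against -0.60, -1.18 and -1.57, with wild-type array 3 nearest to the ΔC arrays (-5.17 ± 0.64, adjusted p = 0.000517). Oas2 makes the 2-5A messenger that activates RNase L. Its levels were 3.84, 4.00 and 1.26 in wild type and -0.87, -1.62 and -2.75 in ΔC, again without overlap (-4.78 ± 0.66, adjusted p = 0.000936). Ifi47, an immunity-related GTPase, stood at 5.58, 5.50 and 2.85 against 0.67, 0.42 and -1.40 (-4.75 ± 0.73, adjusted p = 0.0017).

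Rsad2 encodes viperin, which makes a chain-terminating nucleotide. It read 4.68, 4.57 and 3.33 in wild type and 1.61, 1.27 and -0.28 in ΔC (-3.33 ± 0.52, adjusted p = 0.00173). Ifit1, which binds viral RNA that lacks a methylated cap, read 6.80, 6.74 and 5.71 against 4.85, 4.60 and 3.77 (-2.01 ± 0.47, adjusted p = 0.0138). Isg15, a ubiquitin-like modifier, read 9.28, 9.14 and 8.33 against 7.80, 7.97 and 7.02 (-1.32 ± 0.31, adjusted p = 0.0135). None of the 3 overlapped between genotypes. Rsad2 kept its call under all alternatives, whereas Ifit1 and Isg15 lost theirs without wild-type array 1 (adjusted p = 0.0599 and 0.0609) or without wild-type array 2 (adjusted p = 0.0584 and 0.0583).

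The guanylate-binding protein Gbp2b is outside that list and is also interferon-inducible. It read 4.05, 4.12 and 1.86 in wild type and -7.60, -8.26 and -6.63 in ΔC, where no array was well above background, so that it was at least 621-fold lower. Gbp4 was at least 7.99-fold lower by the same measure, with -1.97, -1.81 and -5.03 against -7.74, -8.30 and -8.39. Phf11d, Phf11a and Phf11b differed by -5.38, -5.27 and -4.72. Phf11, Oas, Gbp and Ifna genes have near-identical copies, and a probe may read more than 1 of them. Ch25h, from the cholesterol list, makes an antiviral oxysterol. At 2.59, 1.95 and 0.52 against -2.31, -2.92 and -2.02 it was lower in ΔC (-4.10 ± 0.52, adjusted p = 0.00058), and in untreated cells the difference was 0.13. Not every listed gene was lower: Ifih1, the gene for MDA5, read 4.03, 3.77 and 3.30 against 3.94, 3.81 and 2.46 (-0.29 ± 0.42, adjusted p = 0.669), and Ifi27, Ifitm2 and Gbp10 were not called either (-0.03, -0.08 and -0.18). Eif2ak2, the gene for PKR, missed the threshold at 4.40, 4.33 and 3.54 against 3.42, 3.21 and 1.70 (-1.31 ± 0.45, adjusted p = 0.0638). Blocking on replicate number brought a call, as did leaving out wild-type array 3 (adjusted p = 0.0443).

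Stretches of 7 promoters are shown because the interferon-stimulated response element, a site that IRF proteins bind, is a repeat of GAAA. The letters searched were GAAANNGAAA on both strands, within 250 bases before and 50 after the start of transcription, in RefSeq promoters of GRCm38.p6. Capitals mark the matches, and a match on the other strand reads as TTTC repeats. Each stretch is printed 5′ to 3′ on the strand of its gene.
Ifit1, chr19:34640765-34640833, + strand: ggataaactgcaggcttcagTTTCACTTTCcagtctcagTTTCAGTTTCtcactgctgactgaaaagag
Isg15, chr4:156200855-156200916, - strand: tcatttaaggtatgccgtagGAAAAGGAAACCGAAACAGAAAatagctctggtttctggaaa
Rsad2, chr12:26456543-26456592, - strand: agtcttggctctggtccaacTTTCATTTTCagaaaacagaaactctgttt
Slfn8, chr11:83020829-83020878, - strand: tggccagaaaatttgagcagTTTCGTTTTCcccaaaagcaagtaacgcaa
Gbp2b, chr3:142594690-142594739, + strand: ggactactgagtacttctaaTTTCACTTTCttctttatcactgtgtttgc
Cxcl10, chr5:92349073-92349122, - strand: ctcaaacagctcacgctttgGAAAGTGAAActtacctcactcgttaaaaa
Ifna4, chr4:88841678-88841727, + strand: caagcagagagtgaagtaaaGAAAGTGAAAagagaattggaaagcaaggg

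The match in Isg15 is 3 overlapping repeats in 1 run, and Ifit1 holds 2 separate matches. Of 32851 promoters of that length 3.44% held the letters. Among the 11800 tested autosomal genes with a promoter entry the share was 3.75%. It was 2.77% of the genes higher in treated ΔC (39 of 1406) and 10.4% of those lower (92 of 881). Among lower genes it was 17.9% where the gene was not also lower without poly(I:C) (66 of 369) and 5.08% where it was (26 of 512). Of the listed interferon-stimulated genes with a promoter entry 42 of 71 held the letters, 59.2%, and of those called lower 30 of 51, 58.8%. A match describes these letters only, and occupancy was not measured.

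The interferon genes themselves were lower for the alpha family. Of 21 type I and other interferon genes listed, 13 were tested, and 10, all Ifna or Ifnab, were lower in ΔC with a median over the 13 of -2.13. Their called share was 76.9%, against 20.4% over all autosomal genes. Ifna4, an early member of the family, read 2.98, 3.04 and 0.52 in wild type and 0.16, -0.28 and 0.21 in ΔC. The groups did not overlap, but wild-type array 3 lay close to the ΔC arrays (-2.15 ± 0.61, adjusted p = 0.0316). The list's median level was 2.33, 2.36 and -0.22 in wild type and -0.69, -0.90 and -0.43 in ΔC, so its gap came from wild-type arrays 1 and 2. Leaving out wild-type array 1, wild-type array 2 or ΔC array 2 left 1 lower gene, and leaving out ΔC array 1 left 3; without the 4 arrays numbered 3, 12 were lower. With the slide as a block 0 were called, and with the scan day 6. Ifnb1, the first interferon that fibroblasts make, read 6.78, 6.58 and 5.58 against 5.18, 4.99 and 5.28. Its groups did not overlap, yet its difference missed the threshold (-1.17 ± 0.67, adjusted p = 0.251).

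Of 23 double-stranded RNA sensors and adaptors, which act upstream of interferon, 5 were lower and 1 higher, a called share of 26.1% against 20.4% over all autosomal genes. The median difference was -0.22, between -0.37 without ΔC array 2 and -0.13 without ΔC array 3 or wild-type array 1. Besides Zbp1, the lower genes included Adar, which edits double-stranded RNA, at 4.77, 4.73 and 3.85 against 3.15, 3.35 and 1.98 (-1.62 ± 0.34, adjusted p = 0.00806). The higher gene was Cgas, the cytosolic DNA sensor, at 3.10, 2.99 and 2.64 against 3.80, 3.75 and 3.29 (0.70 ± 0.21, adjusted p = 0.0371). The lower count was 3 without wild-type array 1 or 2 and 10 without wild-type array 3. The call of Cgas was lost without any one of wild-type arrays 1, 2 and 3 (adjusted p = 0.0604, 0.0847 and 0.0999), of ΔC arrays 1 and 2 (adjusted p = 0.123 and 0.118), or of untreated ΔC arrays 1 and 2, and 2 genes were higher without untreated ΔC array 3.

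Of 11 interferon regulatory factors and related genes tested, 3 were lower (Irf1, Irf9 and Irf2bpl) and 0 higher (27.3% called, against 20.4% over all autosomal genes). Without wild-type array 3, 5 were lower, while 1 was higher without ΔC array 3 or untreated ΔC array 3. Irf1 read 6.88, 6.85 and 6.05 in wild type and 5.06, 5.10 and 5.06 in ΔC (-1.52 ± 0.31, adjusted p = 0.00726). Irf7, the factor that amplifies Ifna genes, overlapped between genotypes: wild-type array 3, at 2.02, lay below ΔC array 1, at 2.17. It missed the threshold (-2.18 ± 0.73, adjusted p = 0.0579) but passed it once replicate numbers were blocked, and also without wild-type array 3 (adjusted p = 0.0185) or ΔC array 1 (adjusted p = 0.0493). Among 23 receptor, JAK-STAT and SOCS genes tested, 4 were lower and 4 higher (34.8% called) with a median of 0.00. Without wild-type array 1, 2 were lower, and 2 were higher when arrays were scaled to their medians. Socs1, an inhibitor of JAK-STAT signalling, read 4.35, 4.38 and 3.88 against 2.55, 2.62 and 1.96 (-1.83 ± 0.34, adjusted p = 0.0048). Ifnlr1, a chain of the interferon lambda receptor, was higher in ΔC, with -3.80, -4.39 and -1.65 in wild type and 0.28, 0.33 and 0.38 in ΔC (3.61 ± 0.58, adjusted p = 0.00213), and Ptpn6, a phosphatase of cytokine receptors, was higher by 2.29 ± 0.30.

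MHC class I and immunoproteasome genes prepare and present peptides to T cells. Of 26 tested, 9 were lower and 0 higher in treated ΔC (median -0.61), while 11 were higher and 1 lower in untreated ΔC (median 0.60), and 2 genes were called in both of these directions. The treated called share was 34.6%, against 20.4% over all autosomal genes. In untreated cells 11.1% of all autosomal genes were higher and 9.38% lower. By limma the change between the conditions was called for 0 of the 26, though 21 had an unadjusted p under 0.05 and 24 a change below 0. Of all 14916 autosomal genes 822 had an unadjusted p under 0.05 by the same test. The median change was 0.07 over all of them and -1.47 over the 26. The treated median was -0.34 without wild-type array 1 or ΔC array 3, -0.36 without wild-type array 2 and -0.995 without wild-type array 3. Tap1, a chain of the peptide transporter, read 3.05, 2.85 and 0.87 in wild type and 0.95, 0.29 and -0.78 in ΔC, an overlap of wild-type array 3 with ΔC array 1 (-2.10 ± 0.61, adjusted p = 0.0343). In untreated cells its difference was 2.31. Psmb10, a catalytic subunit of the immunoproteasome, read 7.41, 7.45 and 5.46 against 5.19, 5.29 and 5.07 (-1.59 ± 0.42, adjusted p = 0.0245). The lower count was 1 without wild-type array 1 or 2, 4 without ΔC array 1, 3 without ΔC array 2 or 3, and 16 without wild-type array 3, and 18 without the 4 arrays numbered 3. Class I genes share long near-identical stretches, so single H2 genes are uncertain.

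Of 23 chemokine genes tested, 12 were lower and 4 higher, with a median of -0.91. Their called share was 69.6%, against 20.4% over all autosomal genes. Both directions held CXC and CC genes. The lower genes were Cx3cl1, 6 CXC genes of chromosome 5 and 5 CC genes of chromosome 11, and the higher ones were Cxcl2, Cxcl12, Cxcl16 and Ccl27a. Ppbp, whose product is cut to a neutrophil attractant, read 3.33, 2.88 and 2.86 in wild type and -6.27, -6.39 and -3.28 in ΔC, with ΔC array 3 alone well above background (-8.34 ± 0.81, adjusted p = 0.000109). Cxcl5, of the same kind, read 5.31, 5.09 and 3.34 against -2.04, -2.51 and -0.99 (-6.43 ± 0.69, adjusted p = 0.000208). Both were lower without treatment too, by -8.62 and -7.82. Cxcl10 attracts activated T cells through CXCR3. It read 9.60, 9.46 and 8.60 in wild type and 7.98, 7.93 and 7.71 in ΔC (-1.35 ± 0.22, adjusted p = 0.0023), and its untreated levels ran the other way, at 2.40, 2.32 and 2.33 against 3.28, 3.27 and 3.12 (0.88, called higher). Ccl5, another T-cell attractant, overlapped between genotypes (-0.85 ± 0.38, adjusted p = 0.139). It passed without wild-type array 3 (adjusted p = 0.0159), and with replicate numbers blocked on the 6 treated arrays alone. Of the higher genes, Cxcl12, the ligand of CXCR4, read 3.29, 2.74 and 3.07 against 5.39, 4.66 and 5.62 (2.19 ± 0.31, adjusted p = 0.00101), and Cxcl16 read -0.70, -0.60 and -0.79 against 0.82, 1.06 and 0.87 (1.61 ± 0.22, adjusted p = 0.000931). The higher count was 2 without wild-type array 1 or 2.

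Of 26 inflammatory cytokine genes tested, 7 were lower and 3 higher (median -0.65, or -0.41 without wild-type array 1). Their called share was 38.5%, against 20.4% over all autosomal genes. Tnfsf10, which encodes the death ligand TRAIL, read 0.61, 0.64 and -2.08 in wild type and -4.41, -4.78 and -8.28 in ΔC, with 2 ΔC arrays well above background (-5.55 ± 0.98, adjusted p = 0.00345). Its untreated difference was 0.09. Il11, a profibrotic member of the IL-6 family, was higher in ΔC on every array than in wild type (1.13 ± 0.14, adjusted p = 0.000415). Il6 overlapped between genotypes (-0.86 ± 0.39, adjusted p = 0.143) and passed without wild-type array 3 (adjusted p = 0.00136); in untreated cells it was higher in ΔC by 2.53. The lower count was 3 without wild-type array 1 or 2 and 4 without ΔC array 1 or 2, and 5 genes were higher without ΔC array 3.

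The NF-κB list, with 36 members tested, held 5 lower and 2 higher genes (median -0.26), a called share of 19.4% against 20.4% over all autosomal genes. Nfkbid, an atypical nuclear IκB protein, was higher in ΔC, with -3.70, -3.62 and -2.85 in wild type and 0.89, 0.49 and -0.43 in ΔC (3.70 ± 0.40, adjusted p = 0.000206). Tnfaip3, the feedback inhibitor A20, stood at 4.99, 4.79 and 4.86 against 4.13, 4.29 and 4.18 without passing (-0.68 ± 0.25, adjusted p = 0.0845), though it passed with replicate numbers blocked on the 6 treated arrays, and Icam1 overlapped (-0.18 ± 0.57, adjusted p = 0.858). The lower count was 2 without wild-type array 1 or 2 and 9 without wild-type array 3. Of 45 immediate-early genes 7 were lower and 2 higher, a called share near the 20.4% over all autosomal genes. Egr4 was higher in ΔC, with -2.57, -3.11 and -3.80 in wild type and 0.94, -0.11 and -0.08 in ΔC (3.41 ± 0.33, adjusted p = 0.000109), and Klf4 was lower in ΔC, with 4.17, 4.04 and 3.03 in wild type and 1.47, 1.06 and 1.57 in ΔC (-2.38 ± 0.39, adjusted p = 0.00234). Without wild-type array 1 or 2, or ΔC array 2, 4 immediate-early genes were lower, and 1 was higher without any one of these or ΔC array 1.

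The eIF2 machinery had a called share of 13.6%, against 20.4% over all autosomal genes. Of 22 kinases, phosphatase subunits and eIF2 or eIF2B subunits tested, 3 were lower (Ppp1r15a, Impact and Eif2b2) and 0 higher, with a median of -0.02. For Ppp1r15a the limit of its probe given above applies. Without untreated wild-type array 3, 1 gene was higher. Impact, an imprinted inhibitor of the kinase GCN2, read 3.45, 3.43 and 3.60 in wild type and 0.59, 0.05 and 1.77 in ΔC (-2.69 ± 0.41, adjusted p = 0.00159), and its untreated difference was -2.78. Eif2ak3, the gene for PERK, overlapped between genotypes (0.07 ± 0.23, adjusted p = 0.856). Eif2s1, the gene for eIF2α, did not overlap but missed the threshold (-0.43 ± 0.15, adjusted p = 0.0758), and was called with replicate numbers blocked on all 12 arrays but not on the 6 treated ones.

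The integrated stress response is run by ATF4 and CHOP when eIF2α is phosphorylated. Of its 55 tested target genes 14 were lower and 1 higher (median -0.32, or -0.21 without ΔC array 3). Their called share was 27.3%, against 20.4% over all autosomal genes. Gdf15, a stress-induced hormone, read 1.64, 1.62 and 0.98 in wild type and -3.51, -4.06 and -2.06 in ΔC (-4.62 ± 0.62, adjusted p = 0.000813). Ddit3, which encodes CHOP, read 2.83, 2.85 and 2.32 against 1.41, 1.40 and 1.65 (-1.18 ± 0.24, adjusted p = 0.00694), and it was lower in untreated ΔC by nearly as much (-1.08). Atf4 overlapped, at 8.38, 8.34 and 8.09 against 8.09, 8.11 and 7.99 (-0.20 ± 0.12, adjusted p = 0.245). So did Atf3 (-0.51 ± 0.45, adjusted p = 0.472). In untreated cells 15 members of the list were lower and 1 higher, while 9.38% of all autosomal genes were lower and 11.1% higher. The lower count was 8 without wild-type array 1, wild-type array 2 or ΔC array 1, and 9 without ΔC array 2, and 2 genes were higher without ΔC array 3. The letters TGATGNAA of the CHOP and ATF4 composite site were searched on both strands. Of the genes of this list with a promoter entry 17 of 47 held them, 36.2%, and of those called lower 3 of 12. The share was 3.06% of the tested autosomal genes with a promoter entry and 3.97% of all promoters. Of 32 endoplasmic reticulum chaperone and quality control genes 1 was lower and 1 higher (median -0.07). The higher count was 0 without wild-type or ΔC array 1 and 2 without wild-type or ΔC array 3, and 2 were lower without untreated wild-type array 3. Hspa5, the gene for BiP, read 7.01, 6.82 and 6.86 against 6.71, 6.81 and 6.53 (-0.21 ± 0.12, adjusted p = 0.23).

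**Figure D2:**
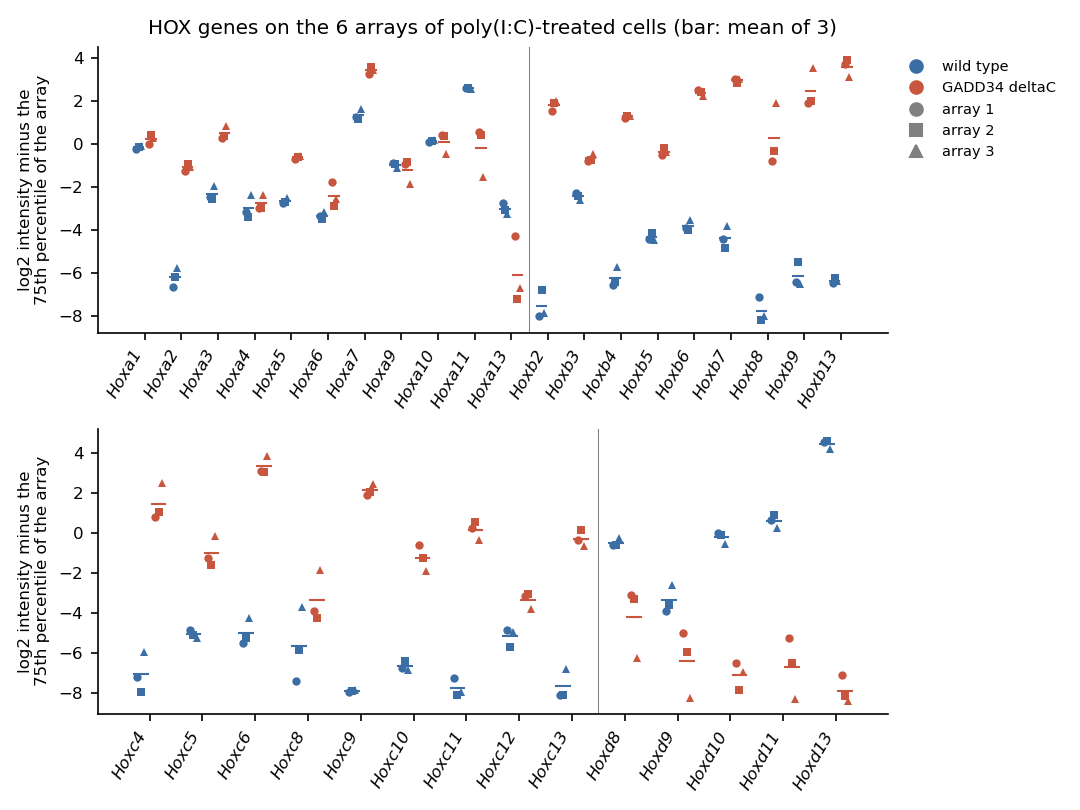
Levels of HOX genes on the 6 treated arrays, in log2 processed intensity minus each array's 75th percentile; each point is an array, coloured by genotype, and genes are ordered by cluster. HOXB and HOXC genes lie higher in ΔC and HOXD genes higher in wild type, as for Hoxc9 (-7.92, -7.89 and -7.81 against 1.93, 2.09 and 2.49) and Hoxd13 (4.58, 4.60 and 4.21 against -7.05, -8.12 and -8.38).

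Of the 35 lists, the medians of greatest size were those of 3 HOX clusters, which hold transcription factors that fibroblasts keep from their position along the body axis and limb. All 9 HOXB genes tested and 8 of 9 HOXC genes were higher in ΔC, with medians of 7.51 and 7.37 (7.33 and 5.65 when genes below background stand at their bound). All 5 HOXD genes tested of 10 listed were lower, with a median of -6.87 (-5.73 with bounds). Over all autosomal genes 12.1% were higher and 8.28% lower. A gene seen in only 1 genotype was tested because of the group where it was high, so these counts partly follow from the filter. Over the alternatives the counts fell as low as 4 HOXB and 2 HOXC genes higher and 0 HOXD genes lower. The medians of smallest size were 5.06, 3.44 and -2.09. Some alternatives used a stricter filter, which leaves out genes that read at background in 1 genotype. A low count can therefore mean that fewer members were tested. With the slide or the scan day as a block the counts were 9, 7 and 3. Leaving out any 1 array gave 9 HOXB, 8 or 9 HOXC and 4 or 5 HOXD genes. Hoxc9, a thoracic gene, was not well above background on any wild-type array and was at least 272-fold higher. Hoxb13, a posterior gene, read -6.48, -6.25 and -6.39 in wild type and 3.71, 3.90 and 3.08 in ΔC, at least 715-fold higher. Hoxb7 and Hoxc6 were well above background on all 6 arrays, at 7.33 ± 0.38 and 8.34 ± 0.33 (adjusted p = 2.6e-06 and 4.39e-07). Hoxd13, which patterns digits, was at least 1350-fold lower, and Hoxd10 at least 53.2-fold lower.

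The HOXA cluster was mixed, with 5 of 11 genes higher and 2 lower. Hoxa7 read 1.26, 1.16 and 1.62 against 3.23, 3.57 and 3.44 (2.07 ± 0.15, adjusted p = 1.98e-05), and Hoxa3, an anterior gene, was higher by 2.82 ± 0.24. The posterior gene Hoxa11 was lower in ΔC, with 2.57, 2.62 and 2.55 in wild type and 0.53, 0.41 and -1.56 in ΔC (-2.78 ± 0.56, adjusted p = 0.00692). Hoxa13, the other lower gene, lost its call without wild-type array 1 or 2 (adjusted p = 0.0683 and 0.0581) or ΔC array 2 or 3 (adjusted p = 0.0721 and 0.0536). Without poly(I:C) the 9 HOXB and 8 HOXC genes were again called higher, and 4 HOXD genes lower (11.1% and 9.38% of all autosomal genes). These differences were thus measured on 2 sets of arrays that share no array. Same-numbered arrays of the 2 sets deviated alike from their group means, so the sets are not independent.

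Factors of limb and body wall identity moved in both directions. Of 57 tested, 14 were lower and 12 higher, a called share of 45.6% against 20.4% over all autosomal genes. The median was 0.03, and it ran from -0.16 without ΔC array 3 to 0.14 without ΔC array 2. Pitx1, which specifies the hindlimb, read 4.83, 4.99 and 4.78 in wild type and -7.03, -6.52 and -5.08 in ΔC, with ΔC array 3 alone well above background (-11.08 ± 0.84, adjusted p = 2.48e-05). Lhx2, of the distal limb bud, read 2.54, 2.27 and 2.57 against -3.60, -3.63 and -3.21 (-5.94 ± 0.23, adjusted p = 4.02e-07). Tbx4, a hindlimb partner of Pitx1, was at least 7.68-fold lower. On the other side, Pax1 of the sclerotome was at least 282-fold higher and Alx1 at least 15.4-fold. Alx1 differed within ΔC, at -2.22, -4.10 and 0.42.

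Of 25 imprinted genes tested, 10 were higher and 1, Impact, was lower (2 without ΔC array 1), with a median of 0.41. Their called share was 44%, against 20.4% over all autosomal genes. The median was 0.75 without wild-type array 3, 0.70 without ΔC array 1 and 0.78 without ΔC array 2. Dlk1, a growth regulator of the Notch-ligand family, read -4.13, -3.69 and -2.67 in wild type and 3.10, 0.67 and 5.22 in ΔC. The ΔC arrays spread widely and still lay above every wild-type array (6.49 ± 1.20, adjusted p = 0.00451). Mest read -2.40, -2.23 and -2.06 against 2.70, 2.88 and 1.44 (4.57 ± 0.39, adjusted p = 5.08e-05). Cdkn1c, an inhibitor of the cell cycle, read -2.30, -2.86 and -1.62 against 1.40, 1.50 and 2.29 (3.99 ± 0.36, adjusted p = 7.48e-05). Nnat was well above background on 1 wild-type array (5.73 ± 0.57). In untreated ΔC 11 imprinted genes were higher and 1 lower, while 11.1% of all autosomal genes were higher and 9.38% lower.

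**Figure D3:**
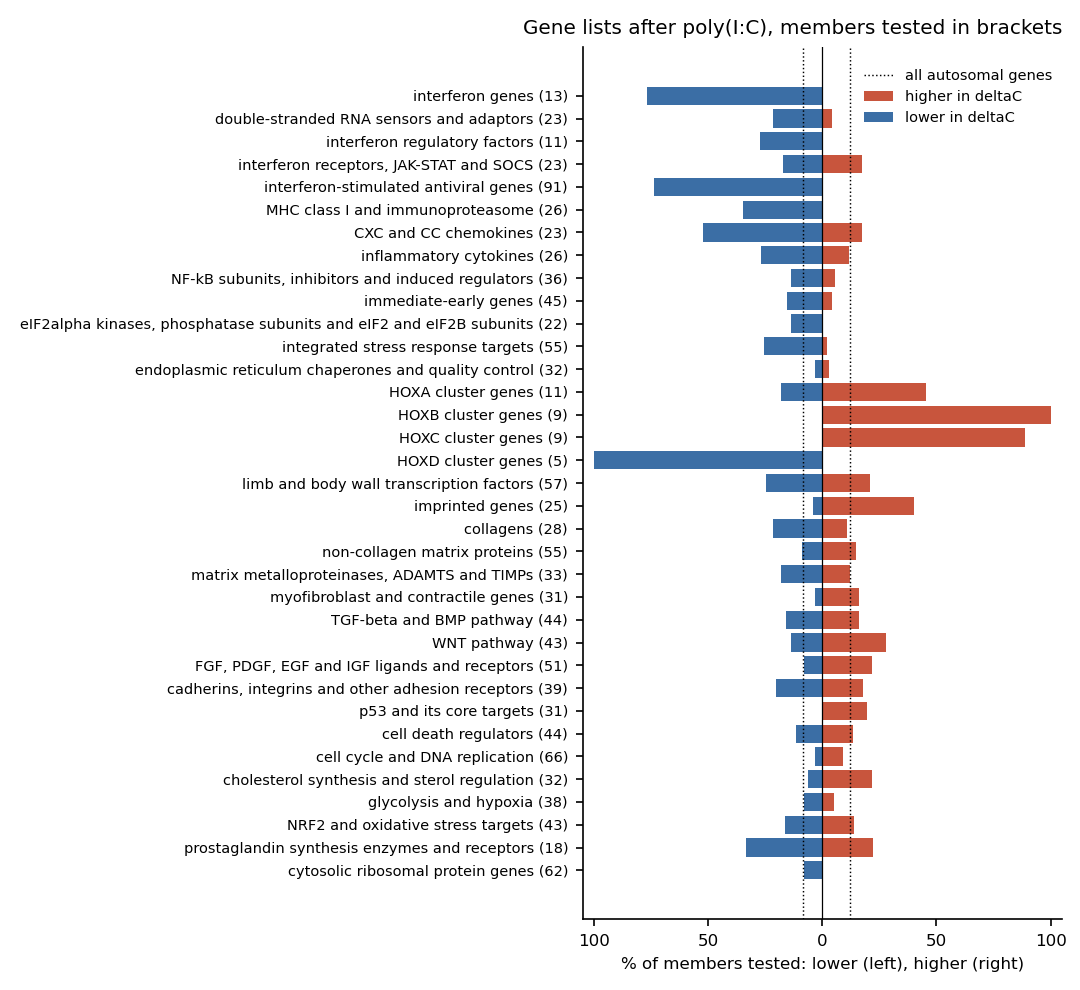
Share of the tested members of 35 gene lists that were called lower (to the left) or higher (to the right) in treated ΔC, in percent, with the number tested in brackets. Dotted lines mark the shares over all autosomal genes, 8.28% lower and 12.1% higher; the interferon, HOXB, HOXC and HOXD bars reach farthest beyond them.

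Extracellular matrix genes were called in both directions. The called shares were 32.1% of collagens, 23.6% of other matrix proteins and 30.3% of metalloproteinases and inhibitors, against 20.4% over all autosomal genes. The share of the other matrix proteins was thus near that of all genes. Of 28 collagen genes 6 were lower and 3 higher, and the median of -0.27 turned to 0.02 without ΔC array 2. Col6a3, a chain of microfibrillar collagen VI, read 3.06, 2.97 and 3.40 in wild type and -2.21, -4.47 and -1.86 in ΔC (-5.99 ± 0.70, adjusted p = 0.000353). Col3a1, a fibrillar chain, read 2.96, 2.83 and 3.31 against 0.12, -1.96 and 0.25 (-3.56 ± 0.65, adjusted p = 0.00427). Of 55 other matrix proteins 8 were higher and 5 lower. The basement membrane protein Nid1 was higher in ΔC, with -4.09, -5.25 and 0.03 in wild type and 4.56, 4.52 and 3.87 in ΔC (7.42 ± 1.46, adjusted p = 0.00605), with wild-type array 3 well above its group. The lower count for these matrix proteins was 3 without any one of wild-type arrays 1 and 2 and ΔC arrays 1 and 2, and 8 without ΔC array 3. Of 33 metalloproteinase and inhibitor genes 6 were lower and 4 higher, the higher count falling to 1 without wild-type array 1 or 2 or ΔC array 1 and to 2 without ΔC array 2 or 3. Adamts1, a secreted protease, read 4.67, 3.92 and 3.90 against 2.75, 2.27 and 2.50 (-1.66 ± 0.21, adjusted p = 0.000612), and in untreated cells its difference was -0.02; the change between the conditions did not pass (-1.64, adjusted p = 0.221).

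Growth factor and signalling genes were called in both directions, and the balance moved with the scaling. Scaled to array medians, 6 FGF, PDGF, EGF and IGF genes were higher and 7 lower, 7 and 7 WNT genes, and 5 and 7 TGF-β and BMP genes, while with the 75th percentile 12.1% of all autosomal genes were higher and 8.28% lower. Of 51 FGF, PDGF, EGF and IGF genes tested, 11 were higher and 4 lower; 7 were higher without wild-type array 1, 7 were lower without untreated ΔC array 3 and 8 were lower without ΔC array 3. Gas6, the ligand of the TAM receptors Tyro3, Axl and Mertk, read -4.06, -4.71 and -2.25 in wild type and 4.14, 4.34 and 3.33 in ΔC (7.61 ± 0.66, adjusted p = 5.46e-05). Igfbp6, which binds IGF2, was higher by 2.66 ± 0.27, and Fgf10 was lower in ΔC, with 2.03, 2.43 and 1.40 in wild type and -1.01, -2.73 and -1.43 in ΔC (-3.67 ± 0.50, adjusted p = 0.000832). Of 43 WNT pathway genes 12 were higher and 6 lower, and 7, 5, 7 and 6 were higher without wild-type arrays 1 and 2 and ΔC arrays 1 and 2 in turn. Fzd3, a WNT receptor, was higher by 3.52 ± 0.41, and Rnf43, which removes such receptors, was lower by -4.23 ± 0.55. Of 44 TGF-β and BMP genes 7 were higher and 7 lower. Both counts fell to 3 or 4 without wild-type array 1 or 2 or ΔC array 2, and the higher one to 4 without ΔC array 1. Fstl3, an activin antagonist, was higher in ΔC, with -2.03, -2.49 and 0.29 in wild type and 2.20, 1.85 and 3.46 in ΔC (3.91 ± 0.77, adjusted p = 0.00613).

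Of 39 adhesion receptor genes 8 were lower and 7 higher, a called share of 38.5% against 20.4% over all autosomal genes. Itgb7, an integrin chain of leukocytes, read 4.04, 4.30 and 3.86 in wild type and -0.64, -0.46 and 0.64 in ΔC (-4.22 ± 0.36, adjusted p = 4.84e-05), and the cadherin gene Cdh3 was higher by 5.39 ± 0.56 with 2 wild-type arrays well above background. The lower count was 5 without wild-type array 1 and 4 without wild-type array 2, wild-type array 3 or ΔC array 2, and the higher one was 4 without wild-type array 1. Of 31 contractile genes 5 were higher and 1, Vim, was lower, a called share of 19.4% against 20.4% over all autosomal genes. The higher count was 2 without wild-type array 1 or 2 or ΔC array 2 and 3 without ΔC array 1 or 3, and 0 genes were lower without wild-type array 1. Lsr, a tricellular junction protein, was higher in ΔC, with -3.62, -3.26 and -3.45 in wild type and 3.12, 3.08 and 2.12 in ΔC (6.22 ± 0.44, adjusted p = 1.54e-05).

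Several metabolic genes differed widely. Xdh, the xanthine oxidase gene, read 1.59, 2.08 and 0.50 in wild type and -5.40, -5.47 and -5.43 in ΔC (-6.82 ± 0.40, adjusted p = 4.97e-06). Gatm, the first enzyme of creatine synthesis, read 1.77, 1.47 and 1.47 against -3.29, -3.60 and -3.47 (-5.02 ± 0.16, adjusted p = 1.16e-07). Fabp4, a fatty acid carrier, was lower by -5.83 ± 0.47. Ptgis, which makes prostacyclin, was higher in ΔC, with -5.54, -6.08 and -4.94 in wild type and 3.50, 3.42 and 1.17 in ΔC, with 2 wild-type arrays well above background (8.22 ± 0.75, adjusted p = 7.48e-05). It belongs to 18 prostaglandin genes, of which 4 were higher and 6 lower, a called share of 55.6% against 20.4% over all autosomal genes. Of the 18, 1 was higher without wild-type array 1 or 2 and 2 without ΔC array 2, while 3 were lower without wild-type array 1 and 2 without ΔC array 2. All of Xdh, Gatm, Fabp4 and Ptgis were called in the same direction in untreated cells.

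Of 32 cholesterol genes 7 were higher and 2, Ch25h and Insig2, were lower (median 0.32, or 0.20 without ΔC array 1), and 3 were higher without any one of wild-type arrays 1 and 2 and ΔC arrays 1 and 2. The called shares were 28.1% of the cholesterol genes and 30.2% of the NRF2 targets, against 20.4% over all autosomal genes. Of 43 NRF2 targets 7 were lower and 6 higher. Both counts fell to 2 or 3 without wild-type array 1 or 2 or ΔC array 2, the lower one to 3 without ΔC array 1 and the higher one to 3 without ΔC array 3. Scaled to array medians, 2 cholesterol genes and 2 NRF2 targets were higher. Hmox1, heme oxygenase 1, was lower in ΔC, with 5.27, 5.78 and 4.72 in wild type and 3.24, 3.31 and 2.33 in ΔC (-2.30 ± 0.45, adjusted p = 0.00621).

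The remaining lists held called shares between 8.06% and 25.0%, against 20.4% of all autosomal genes. Scaled to array medians, 2 p53 genes, 2 cell death regulators and 1 cell cycle gene were higher, and 1 ribosomal protein gene was lower, fewer than with the 75th percentile. Of 31 p53 genes 6 were higher and 0 lower, among them Perp, a desmosomal effector of p53, at 0.01, 0.24 and 1.11 in wild type against 4.32, 4.43 and 3.46 in ΔC (3.62 ± 0.36, adjusted p = 0.000125). That count was 1 without any one of wild-type arrays 1 and 2 and ΔC arrays 1 and 2, and 1 gene was lower without untreated wild-type array 3 or ΔC array 2. Of 44 cell death regulators 6 were higher, 2 without wild-type array 1 or 2 or ΔC array 2, and 5 were lower. Ripk3, the kinase of necroptosis that Zbp1 engages, was higher in ΔC, with 3.15, 3.02 and 3.88 in wild type and 5.21, 5.51 and 4.83 in ΔC (1.83 ± 0.29, adjusted p = 0.00214). Of 66 cell cycle genes 6 were higher and 2 lower; 1 was higher without wild-type array 1 or 2 or ΔC array 2 and 3 without wild-type array 3, while 4 were lower without wild-type array 3 or untreated wild-type array 3. Ccnd2, a cyclin of the G1 phase, was lower in ΔC, with 3.88, 3.82 and 2.71 in wild type and 1.53, 1.33 and 0.69 in ΔC (-2.29 ± 0.31, adjusted p = 0.000897). Of 38 glycolysis and hypoxia genes 2 were higher, 4 without untreated wild-type array 3, and 3 lower, 1 without wild-type array 2. Of 62 cytosolic ribosomal protein genes 5 were lower and 0 higher in treated cells, and 21 were lower and 0 higher in untreated cells. In untreated cells 9.38% of all autosomal genes were lower and 11.1% higher. The treated count was 1 without wild-type array 1 or 2 or ΔC array 1, 2 without ΔC array 2 and 3 without ΔC array 3. Their median difference was -0.13, between -0.21 without wild-type array 3 and -0.05 without wild-type array 1.

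**Figure D4:**
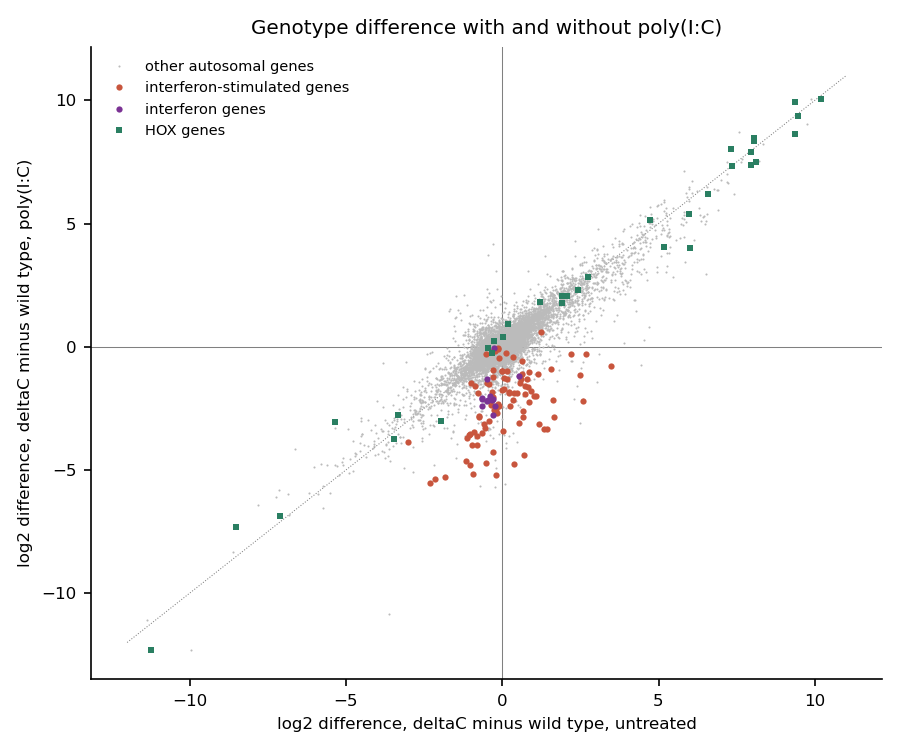
Difference between ΔC and wild type for each autosomal gene without poly(I:C) (horizontal axis) and with it (vertical axis), both as log2 ΔC minus wild type. Interferon-stimulated genes, interferon genes and HOX genes are coloured; HOX genes lie along the diagonal, while most interferon-stimulated genes lie below it around a treated median of -2.01 and an untreated median of 0.00.

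Most differences of the treated cells were present before treatment. In untreated cells 1652 genes (11.1%) were higher and 1399 (9.38%) lower in ΔC. Of the 1809 genes higher after poly(I:C), 1265 were also higher without it, 543 were not called and 1 was lower, and the sign was shared by 98.5%, with medians of 1.27 and 1.13. Of the 1235 lower genes 745 were lower without treatment, 486 were not called and 4 were higher. Here 91.5% shared the sign, with medians of -1.04 and -0.68. The treated and untreated differences share no array, and over the autosomal genes they correlated at 0.87, a description in which genes are not independent. Untreated and treated arrays of the same number deviated alike from their group means. The correlations were 0.321, 0.593 and 0.651 in ΔC and 0.135, 0.375 and 0.348 in wild type. The 2 differences are therefore not independent measurements. A further 383 genes were higher and 653 lower only by the call in untreated cells, which does not show that their treated difference is another one.

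The change of the genotype difference with treatment was tested gene by gene. With all 12 arrays 3 autosomal genes (0.0201%) passed, and 822 had an unadjusted p under 0.05. Gbp2b was lower by 7.24 more with poly(I:C) than without it (adjusted p = 0.0483). Fbxo15, a subunit of an SCF ubiquitin ligase, read -2.01, -2.08 and -2.10 in treated wild type and -4.72, -4.62 and -4.29 in treated ΔC (-2.48), while untreated cells differed by 0.13. Its change was -2.61 (adjusted p = 0.018). Cxcl1, a neutrophil attractant, went the other way: untreated wild-type arrays read 3.66, 3.81 and 3.21 and untreated ΔC arrays -0.52, -0.39 and 0.19, whereas treated arrays read 6.02, 6.04 and 5.78 against 5.45, 5.33 and 5.04. Its treated difference of -0.67 missed the threshold (adjusted p = 0.053) but passed with replicate numbers blocked on the 6 treated arrays, and its change was 3.13 (adjusted p = 0.0176). By limma 0 of the 91 interferon-stimulated genes listed were called, though 71 had an unadjusted p under 0.05 and 86 a change below 0.

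The count of 3 genes depends on the arrays used. With replicate numbers blocked, 41 genes were called, 37 of them downwards, with 17 interferon-stimulated and 4 antigen presentation genes among them. Without wild-type array 3 the count was 210, 200 downwards, with 47 interferon-stimulated, 10 interferon and 11 antigen presentation genes. Without the 4 arrays numbered 3 it was 451, 358 downwards, with 61 of 91 interferon-stimulated, 10 of 13 interferon and 21 of 26 antigen presentation genes. It was 0 without any one of wild-type arrays 1 and 2, ΔC array 1, and untreated ΔC arrays 1 and 2, and 1 without ΔC array 2 or untreated ΔC array 3, 5 without ΔC array 3, and 2 without untreated wild-type array 2 or 3. With the slide or the scan day as a block 0 genes were called.

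**Figure D5:**
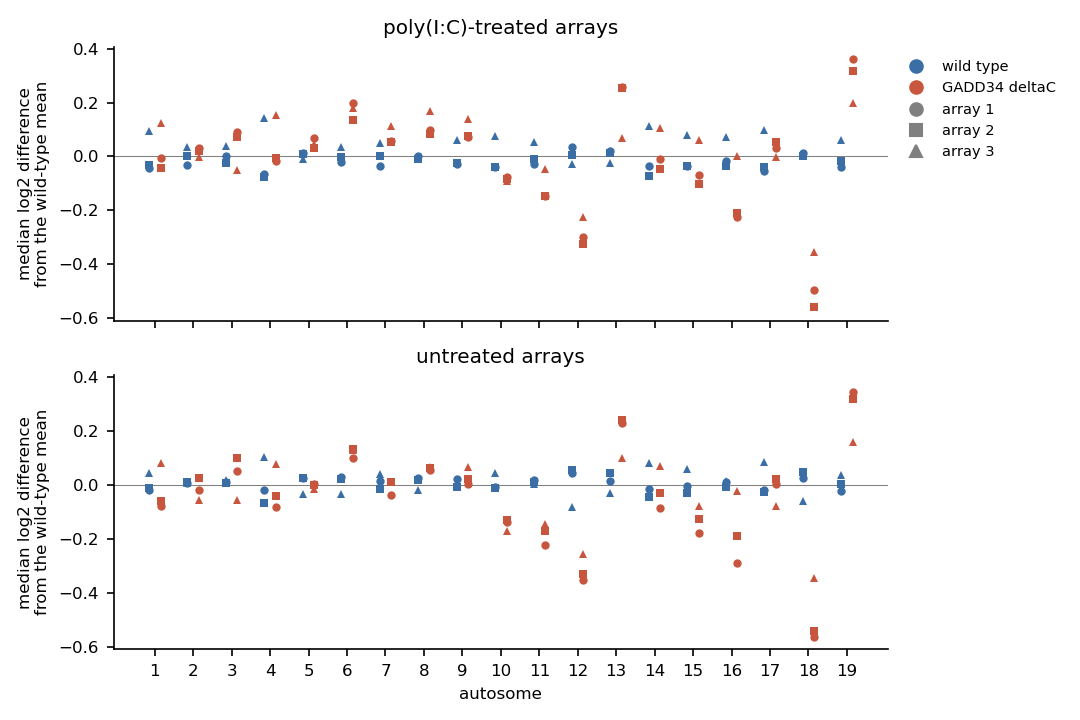
Median level of the genes of each autosome, in log2 relative to the mean of the wild-type arrays, on treated (top) and untreated (bottom) arrays; each point is an array, coloured by genotype. After poly(I:C), chromosomes 10, 11, 12 and 18 lie below 0 and chromosomes 5, 6, 7, 8, 9, 13 and 19 above 0 on all 3 ΔC arrays. The differences of greatest size are those of chromosomes 12 and 18 (down) and 6, 13 and 19 (up). The treated wild-type arrays stay between -0.07 and 0.14.

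Differences were also uneven along the chromosomes, a pattern chosen after the values were seen. Over all autosomal genes 8.28% were lower and 12.1% higher in treated ΔC. The genes of chromosome 18 had medians of -0.50, -0.56 and -0.35 on ΔC arrays 1, 2 and 3 relative to the treated wild-type mean, and 130 of the 367 tested (35.4%) were lower and 15 (4.09%) higher. Split into 3 equal parts in gene order, it had medians of -0.48, -0.43 and -0.52, so the shift ran along the whole chromosome. Chromosome 12 followed at -0.30, -0.33 and -0.22, with 112 lower (22.2%) and 28 higher (5.56%) genes of 504. Chromosome 19 was shifted upwards, at 0.36, 0.32 and 0.20, with 120 higher (22.2%) and 26 lower (4.8%) genes of 540, and chromosome 13 at 0.26, 0.25 and 0.07 and chromosome 6 at 0.20, 0.13 and 0.18 likewise. The medians of the other 14 autosomes lay between -0.15 and 0.11. The treated ΔC arrays lay wholly above the treated wild-type arrays on 7 of 19 autosomes and wholly below on 4. How many autosomes would part in this way by differences between arrays alone was not tested. The untreated arrays gave medians of -0.49 for chromosome 18 and 0.25 for chromosome 19. Of the 130 lower genes of chromosome 18, 101 were lower without poly(I:C), and of the 120 higher genes of chromosome 19, 77 were higher. Copy number was not measured, and its part in these values was not tested.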

How the data were processed

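RNA of 12 cultures was measured on 1-colour Agilent arrays. Feature Extraction 10.7.3.1 made the files, per the file headers, and the deposited intensity of each spot is background-subtracted, with no normalization between arrays; the submitters' processing notes name limma. A second table, of log2 values deposited by the authors, served as an alternative without its column of ΔC poly(I:C) array 1, which correlated with its own scan at 0.949 (the others at 0.999 or more).

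The log2 processed intensity was taken, control and outlier spots were left out, spots were averaged per probe and each array's 75th percentile was subtracted. Of 55681 probes 27235 were named through RefSeq accessions. Tested genes have a probe above background on each of the 3 arrays in at least 1 group, and the brightest probe stood for the gene. Among 3993 genes with several probes, 7 had probes called in opposite directions. Xaf1 was 1 of these, so its direction rests on the probe chosen. limma 3.58.1 in R 4.3.3 fitted 1 mean per group over 12 arrays (8 residual and 2.19 prior degrees of freedom, two-sided, Benjamini-Hochberg over 15445 genes), and was tested on simulated data. "At least N-fold" compares the bright group with, on each dim array, the weakest signal still above background or the probe's own where higher. Array number limits the precision.

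Genes were named by rule: the 15 largest called differences each way among genes well above background on all 6 treated arrays with no overlap, the 10 largest bounds each way, 24 fixed genes, the 3 largest called members each way of 35 lists, and genes called in the change with treatment; smaller ones were left out for length, and some genes the rule names are not reported here. Genes named otherwise, such as markers, neighbours of Ppp1r15a and list members given without levels, were chosen after their values were seen. The comparison and lists were chosen with earlier results of these data known. Replicate numbers were taken to pair the treated arrays: deviations from group means correlated at 0.187, 0.115 and 0.263 between treated arrays of the same number. The evidence is weak for numbers 1 and 2, since wild-type array 2 with ΔC array 1 gave 0.139 and wild-type array 1 with ΔC array 2 gave 0.118, and untreated wild type with treated ΔC of the same number gave -0.00806, 0.0458 and 0.0657. Within a genotype, untreated and treated arrays of the same number gave 0.321, 0.593 and 0.651 in ΔC and 0.135, 0.375 and 0.348 in wild type. The main fit did not use this pairing. Alternatives covered scaling, background, filters, probes, pairing, slide, scan day, weights and single arrays.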

Additional observations from a re-analysis of the deposited data

Results flagged for a closer look

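For 3 genes the genotype difference with poly(I:C) differed from that without it by limma's test of the difference itself, at an adjusted p under 0.05. Cxcl1 changed by 3.13 on the log2 scale, from a difference of -3.80 in untreated cells to -0.67 in treated ones. Fbxo15 changed by -2.61, from 0.13 to -2.48. Gbp2b changed by -7.24, from -3.61 to -10.84, and no ΔC array was well above background in either condition, so that this size rests on background readings in ΔC.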

How the results depend on the processing

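Over 30 alternatives 8292 values stayed the same by the measure of their kind, 478 became weaker, 50 stronger, 539 moved and 6 reversed. A gene's value stayed the same if it kept its direction and side of the threshold, and weaker or stronger means a call lost or gained. Counts stayed the same within a set ratio of the main count. List medians did so if they shifted by less than the SD of the list's medians over the treated ΔC arrays. Counts and medians beyond these limits moved. Of 190 named called genes 92 kept their call under all alternatives that gave a value, and 0 changed sign. The call was lost by 87 with the slide and 48 with the scan day as a fixed block, by 40 with the replicate block on the 6 treated arrays, and by 0 with the replicate block on all arrays. The reversed values were of genes without a call: Eif2ak3 (-0.068 with median scaling, and -0.014 without wild-type array 3 to 0.165 over single arrays left out), Icam1 (0.019 in the authors' deposited table, which was used without ΔC array 1, and -0.67 to 0.13 over single arrays, above 0 without ΔC array 1 or 2) and Ifih1 (-0.56 to 0.18, above 0 without ΔC array 3).

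Genes higher numbered 975 with median scaling, 602 with the slide and 1047 with the scan day as a block, 3739 with array weights and 3167 without the arrays numbered 3. Genes lower numbered 816 with the replicate block on the 6 treated arrays, 288 with the slide, 587 with the scan day, 2896 with array weights, 799 in the authors' deposited table without ΔC array 1 (776 without that array alone) and 2396 without the arrays numbered 3. The changes with treatment numbered 10 after normexp, 41 with the replicate block, 683 with array weights, 451 without the arrays numbered 3, and 0 with the slide, with the scan day and in the authors' table without ΔC array 1 (also 0 without that array alone). Leaving out 1 array gave 1029 to 1973 higher genes, 601 to 1372 lower ones and 0 to 210 changes. Causes were not tested. The replicate block on all 12 arrays turned Irf7, Eif2ak2 and Eif2s1 into called genes and moved no other named call in the treated comparison; on the 6 treated arrays it called Irf7, Eif2ak2, Cxcl1, Ccl5 and Tnfaip3. Signals near background limit the size of differences in genes that only 1 genotype expressed.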
